A study of Danio rerio with 12 samples.

Results

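The genes described here are the leptin genes lepa and lepb, the leptin receptor gene lepr, the interleukin 11 gene il11a, the shared receptor gene il6st, and 4 genes for suppressors of cytokine signalling, socs1a, socs2, socs3a and socs3b. They were chosen by name from a list of 10, with dose results of these libraries already known. Of the listed names, 9 had a row among the 25099 gene names counted, and il11b had none. The larvae were zebrafish of the AB strain, taken whole at 120 hours post fertilization, labelled by their submitters as embryo tissue. They had been kept in 250, 750 or 1295 ng/mL bepridil, a drug formerly given for angina that blocks calcium channels, or in 0 ng/mL as the control. Each sample pooled 15 larvae, each dose had 3 samples, and all 12 were sequenced as bulk mRNA libraries. No transgene, mutant allele or second agent is named for any group.

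Leptin and interleukin 11 are secreted signals that act through receptors coupled to Janus kinases, which phosphorylate Stat3. Leptin binds Lepr, whereas interleukin 11 binds its own receptor chain together with Il6st, also called gp130. Stat3 activates genes for Socs proteins, among them Socs3, which then block the same receptors and kinases. Socs1 also inhibits Janus kinases, and Socs2 dampens growth hormone receptor signalling. In zebrafish, lepb and the interleukin 11 genes are known as genes induced in injured and regenerating fin and heart, while leptin of mammals is known chiefly as a fat-tissue signal acting on appetite.

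Total counts per library ran from 15571556 to 18284169. Each level is in CPM, the count of a gene per 1000000 counts of its library after correction by a normalization factor, which lay between 0.8308 and 0.9055 at 1295 ng/mL and between 1.011 and 1.075 elsewhere. Of the top dose, replicate 2 had the lowest factor and lay at -75.05 on the first principal component, against -58.42 and -60.19 for the other libraries of its group. At 750 ng/mL, replicate 3 lay at -36.34 on the second component, against -6.64 and -1.426. For the 9 genes, each log2 fold change against controls that moved by over 0.1 when the library of its own dose among these was left out is also given without it. Nothing in the labels tells if the replicates are separate clutches, so the p-values speak for the spread among these pools alone, part of which may be technical. Markers of muscle, eye, liver, pancreas, heart, epidermis, blood cells and macrophages were all counted, with no marker at 0 in every library. In such bulk samples, fewer cells of a type and less RNA per cell cannot be told apart.

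The 9 genes fell into several dose patterns. In control and 750 ng/mL larvae, the cytokine genes lepb and il11a had mean levels under 0.4 CPM. Their means were higher at 250 and 1295 ng/mL, although il11a did not pass the threshold at 250 ng/mL with all libraries in the fit. The feedback genes socs3a and socs3b had every library with bepridil above every control, but neither passed the threshold at 750 ng/mL. Their top means were at 1295 ng/mL, which for socs3a rests on replicate 2 of that dose. The mean of socs1a was also higher at every dose, but highest at 250 ng/mL. The level of socs2 was raised at 250 ng/mL, less so at 750 ng/mL, and back at the control level at 1295 ng/mL. The receptor genes lepr and il6st, and the second leptin gene lepa, differed from controls by less than 0.6 on the log2 scale at every dose. None of them passed the threshold with all libraries in the fit, though il6st at 250 ng/mL (0.54) was close to socs3b there (0.57).

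**Figure D1:**
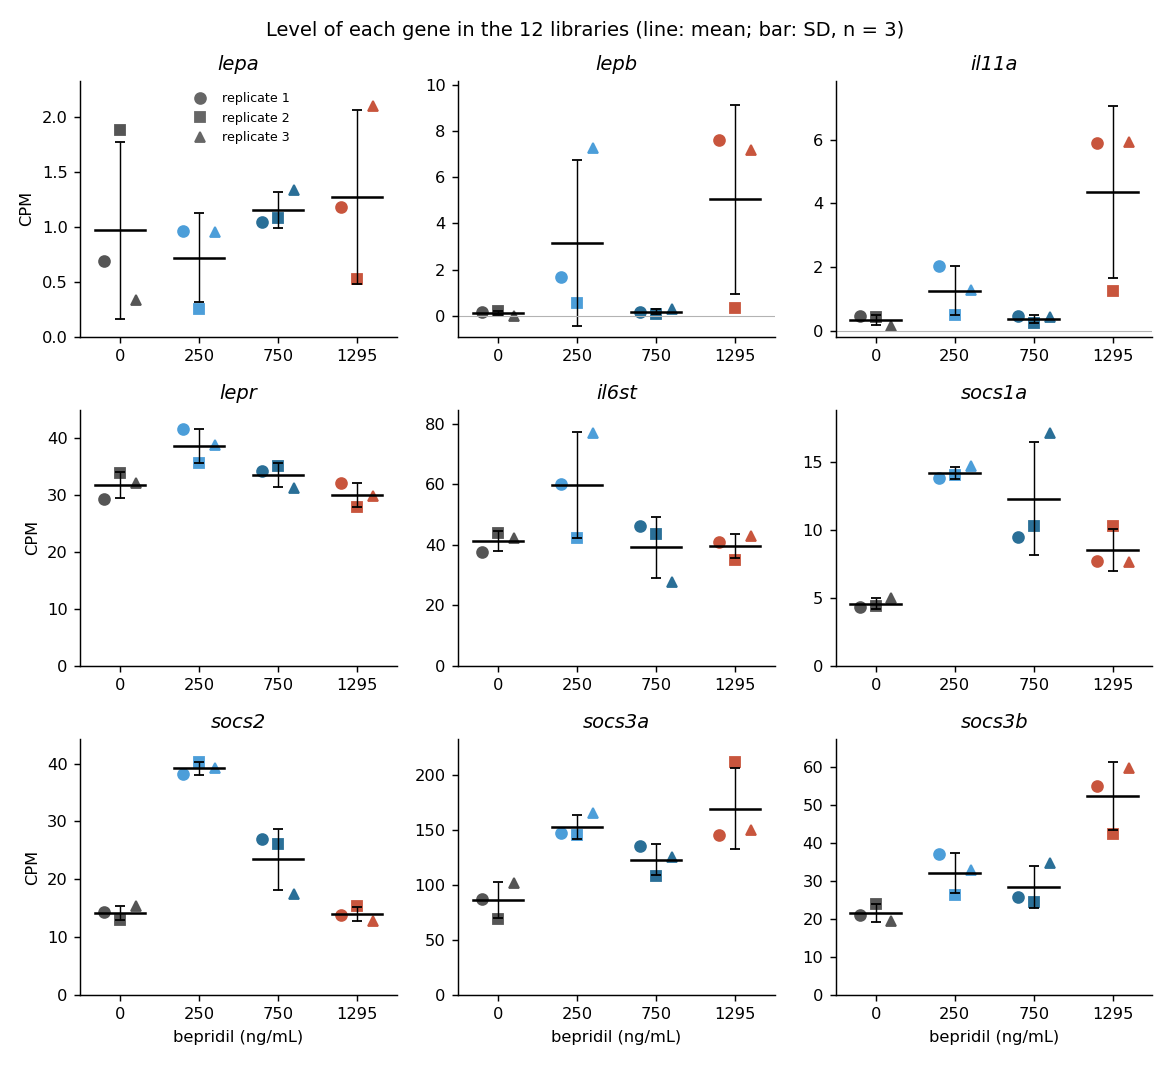
Level of each gene in CPM (vertical axes, each from 0 or just below) by bepridil dose (horizontal axes, in ng/mL), 3 libraries a dose, with symbols for replicate numbers, horizontal lines for means and bars for the SD (n = 3). The top lepb and il11a values stand in 250 and 1295 ng/mL libraries, socs2 peaks at 250 ng/mL with a mean of 39.2 CPM, and socs3b peaks at 1295 ng/mL with a mean of 52.3 CPM.

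Of the leptin genes, lepb varied most. Its libraries held 0.171, 0.182 and 0 CPM at 0 ng/mL (3, 3 and 0 counts) and 1.68, 0.556 and 7.28 CPM at 250 ng/mL (28, 9 and 130 counts). They held 0.173, 0.0599 and 0.304 CPM at 750 ng/mL (3, 1 and 5 counts), and at 1295 ng/mL 7.62, 0.329 and 7.17 CPM (123, 5 and 116 counts). All libraries at 250 and 1295 ng/mL were therefore above all controls, while those at 750 ng/mL overlapped the controls, and replicate 2 was the lowest library at both raised doses. A count of 0 allows up to 3 counts, which in that control library is 0.169 CPM.

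The lepb log2 fold change was 4.71 (SE 1.29) at 250 ng/mL, 0.59 (SE 2.20) at 750 ng/mL and 5.36 (SE 1.23) at 1295 ng/mL. As a ratio of summed CPM over controls, it was 28.4 at 250 ng/mL (95% exact interval 12.8 to 78.4) and 44.3 at 1295 ng/mL (20.0 to 121.8). The ratio at 750 ng/mL was 1.54, with an interval of 0.489 to 5.25 that includes 1. These intervals cover counting error only, and the spread between libraries was far wider. Without 250 ng/mL replicate 3, which alone held 130 of 167 counts at that dose, the log2 fold change was 3.19. Without 1295 ng/mL replicate 2, the low library, it was 5.92 at that dose, and without 750 ng/mL replicate 3 the value at 750 ng/mL was -0.03.

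The other leptin gene, lepa, showed no such pattern. It lay at 0.686, 1.88 and 0.338 CPM in controls and at 0.958, 0.247 and 0.952 CPM at 250 ng/mL. Its levels were 1.04, 1.08 and 1.34 CPM at 750 ng/mL, and at 1295 ng/mL 1.18, 0.527 and 2.10 CPM. Every dose group overlapped the controls, whose replicate 2 was over 5 times replicate 3. The log2 fold changes were -0.39 (SE 0.60), 0.27 (SE 0.56) and 0.42 (SE 0.55) at 250, 750 and 1295 ng/mL. Without control replicate 2 they were 0.50, 1.16 and 1.31, so the sign at 250 ng/mL rests on that library. The signs at the higher doses also rest on single libraries, since the 750 ng/mL value was -0.15 without control replicate 3, and the 1295 ng/mL value was -0.15 without replicate 3 of that dose. Leaving out 750 ng/mL replicate 3 gave 0.11 at 750 ng/mL, and leaving out 1295 ng/mL replicate 2 gave 0.79 at 1295 ng/mL. Reads of lepa and lepb are counted by gene name, and reads shared between close copies could have been split or dropped, which holds for the socs3 pair as well.

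The interleukin 11 gene il11a had its highest mean at 1295 ng/mL, like lepb. The libraries of il11a held 0.457, 0.425 and 0.169 CPM at 0 ng/mL, and 2.03, 0.494 and 1.29 CPM at 250 ng/mL. They held 0.461, 0.24 and 0.426 CPM at 750 ng/mL, and 5.88, 1.25 and 5.93 CPM at 1295 ng/mL. The 1295 ng/mL libraries stood above all others except that replicate 2, at 1.25 CPM, lay within the 250 ng/mL range. Replicate 2 was again the lowest of its group at 250, 750 and 1295 ng/mL.

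The log2 fold change of il11a was 1.85 (SE 0.70), 0.11 (SE 0.87) and 3.62 (SE 0.60) at 250, 750 and 1295 ng/mL. Its ratio of summed CPM over controls was 12.7 at 1295 ng/mL, with an exact 95% counting interval of 7.84 to 21.8, and 3.68 at 250 ng/mL (2.16 to 6.59). Without 1295 ng/mL replicate 2, the log2 fold change at that dose was 4.07, and without 250 ng/mL replicate 2 it was 2.22 at 250 ng/mL. At 750 ng/mL it was -0.03 without replicate 3. A row named il11 also exists, and the tables at hand do not tie it to il11b, so it is not counted among the 9 genes and was looked at after its values were seen. It had 4, 28, 13 and 62 counts summed over the libraries at 0, 250, 750 and 1295 ng/mL, a ratio to controls of 16.9 at the top dose (6.27 to 63.9). Its lowest library was replicate 2 at 250, 750 and 1295 ng/mL, as for il11a.

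**Figure D2:**
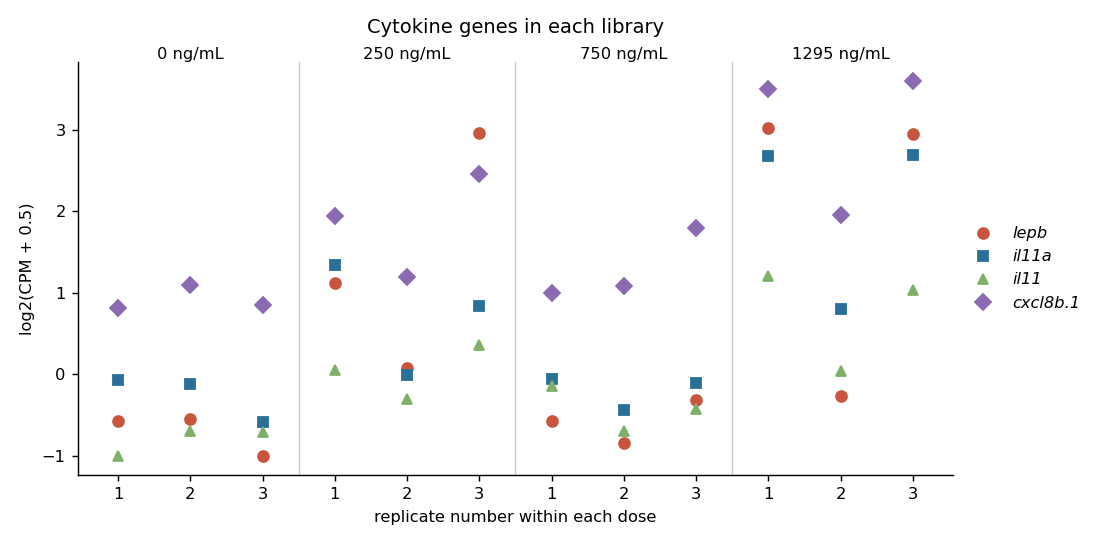
Log2(CPM + 0.5) of lepb, il11a, the row named il11 and cxcl8b.1 (vertical axis) in each of the 12 libraries, set out by dose and by replicate number (horizontal axis). At 250 and 1295 ng/mL all 4 genes have their lowest point in replicate 2, where lepb is at 0.556 and 0.329 CPM.

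Neither receptor gene passed the threshold at any dose with all libraries in the fit. Expression of lepr was 29.3, 33.8 and 32.1 CPM in controls, 41.5, 35.5 and 38.8 CPM at 250 ng/mL, 34.2, 35.0 and 31.1 CPM at 750 ng/mL and 32.0, 27.8 and 29.8 CPM at 1295 ng/mL. All 3 libraries at 250 ng/mL were above all controls, and the other doses overlapped the controls. The log2 fold changes of lepr were 0.28 (SE 0.10), 0.07 (SE 0.10) and -0.09 (SE 0.10) from the lowest dose to the highest.

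Expression of il6st was 37.5, 44.0 and 42.1 CPM in controls and 60.0, 42.2 and 77.1 CPM at 250 ng/mL. It was 46.1, 43.7 and 27.6 CPM at 750 ng/mL and 40.8, 35.1 and 42.8 CPM at 1295 ng/mL. Each dose overlapped the controls, and the 250 ng/mL libraries differed widely among themselves. The log2 fold change at 250 ng/mL was 0.54 (SE 0.20), which became 0.31 without replicate 3 and 0.73, passing the threshold, without replicate 2. At the higher doses it was -0.07 (SE 0.20) and -0.06 (SE 0.20). The low value at 750 ng/mL was replicate 3, the library apart from its group, and without it the log2 fold change there was 0.08. Without 1295 ng/mL replicate 2 the value at 1295 ng/mL was 0.03.

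Among partners of these receptors, looked at after their values were seen, the interleukin 11 receptor gene il11ra did not pass the threshold at any dose. It averaged 18.0 ± 1.31, 20.2 ± 1.67, 14.8 ± 6.15 and 14.1 ± 2.15 CPM at 0, 250, 750 and 1295 ng/mL (SD, n = 3 each). Its log2 fold change at 750 ng/mL was -0.28, and -0.01 without replicate 3, and at 1295 ng/mL -0.35, and -0.23 without replicate 2. It passed at 1295 ng/mL if 750 ng/mL replicate 3 was left out (-0.35, adjusted p = 0.0281). The kinase genes jak2a and jak2b did not pass against controls either, with log2 fold changes between -0.22 and 0.14. The gene for interleukin 6, another ligand of Il6st, had 0, 1, 4 and 11 counts summed over the 4 groups in dose order, too few to be tested. Expression of stat3 rose by 0.32 (SE 0.12) on the log2 scale at 1295 ng/mL (adjusted p = 0.0449, by the quasi-likelihood test of edgeR, Benjamini-Hochberg adjusted). That call was lost on leaving out any of 7 libraries in turn, including each 1295 ng/mL library (0.29 to 0.35), control replicate 1 or 3 (both 0.30), 250 ng/mL replicate 1 or 750 ng/mL replicate 2 (both 0.32). The interleukin 6 receptor gene il6r rose by 0.44 (SE 0.13, adjusted p = 0.0124), but by 0.38 with the call lost without 1295 ng/mL replicate 1.

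Of the 4 suppressor genes, socs1a had the largest log2 fold change at 250 and 750 ng/mL. It held 4.29, 4.37 and 5.01 CPM in controls, 13.8, 14.0 and 14.7 CPM at 250 ng/mL, 9.5, 10.3 and 17.1 CPM at 750 ng/mL and 7.68, 10.3 and 7.6 CPM at 1295 ng/mL. No library of any dose overlapped the controls. The log2 fold changes were 1.63 (SE 0.20), 1.43 (SE 0.21) and 0.90 (SE 0.21) at 250, 750 and 1295 ng/mL. The 750 ng/mL value was 1.07 without replicate 3, the library at 17.1 CPM, and the 1295 ng/mL value was 0.75 without replicate 2.

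Expression of socs2 was 14.3, 12.9 and 15.3 CPM in controls and 38.1, 40.3 and 39.3 CPM at 250 ng/mL. It was 27.0, 26.0 and 17.4 CPM at 750 ng/mL and 13.8, 15.3 and 12.8 CPM at 1295 ng/mL. The groups at 250 and 750 ng/mL overlapped neither each other nor the controls, whereas the 1295 ng/mL group lay within the control range but for its lowest library. The log2 fold changes were 1.47 (SE 0.14), 0.73 (SE 0.14) and -0.02 (SE 0.15) in dose order. Without 750 ng/mL replicate 3, where socs2 was lowest of its group and socs1a highest, the middle value was 0.86.

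The paralogs socs3a and socs3b, whose product is the main feedback inhibitor of receptors that use Il6st, had their highest means at 1295 ng/mL. Expression of socs3a was 87.3, 69.2 and 101.9 CPM in controls, 146.8, 145.2 and 165.4 CPM at 250 ng/mL, 135.4, 107.7 and 125.5 CPM at 750 ng/mL and 145.7, 212.2 and 150.3 CPM at 1295 ng/mL. All libraries with bepridil were above all controls, and the 250 and 1295 ng/mL groups overlapped. The log2 fold changes of socs3a were 0.82 (SE 0.15), 0.51 (SE 0.15) and 0.98 (SE 0.16), and the last was 0.79 without replicate 2. The top mean of socs3a thus rests on that library, since the others at 1295 ng/mL lay below the 250 ng/mL mean of 152.5 CPM.

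Expression of socs3b was 21.1, 23.9 and 19.4 CPM in controls, 36.9, 26.3 and 32.7 CPM at 250 ng/mL, 25.7, 24.5 and 34.6 CPM at 750 ng/mL and 55.0, 42.3 and 59.7 CPM at 1295 ng/mL. Again every library with bepridil was above every control, and the 1295 ng/mL group stood above all others. The log2 fold changes of socs3b were 0.57 (SE 0.16), 0.40 (SE 0.16) and 1.29 (SE 0.16), the last becoming 1.43 without replicate 2. The middle one was 0.18 without 750 ng/mL replicate 3, the library at 34.6 CPM. In that library socs3b, socs1a, lepb and lepa were at the top of their group, while socs2, lepr and il6st were at the bottom. The levels of socs3a and il11a there lay between those of the other libraries at 750 ng/mL.

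**Figure D3:**
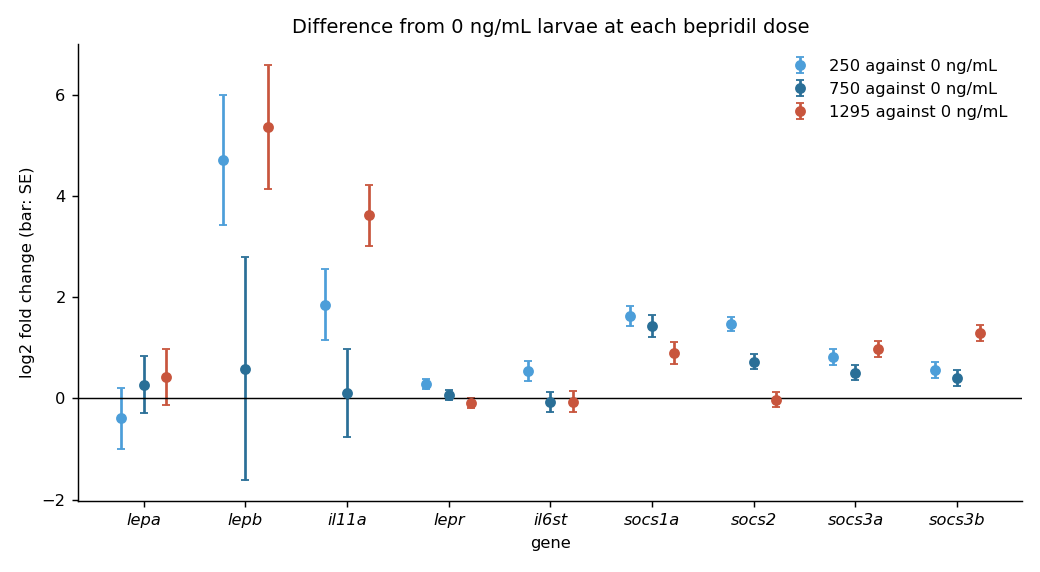
Log2 fold change against 0 ng/mL (vertical axis) of each of the 9 genes at 250, 750 and 1295 ng/mL, with bars for the SE, derived from the F statistic of the test. The 750 ng/mL points of lepb (0.59) and il11a (0.11) lie near 0 between high points at 250 and 1295 ng/mL, and the socs2 points are 1.47, 0.73 and -0.02 in dose order.

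At 250 ng/mL, 5 of the 9 genes passed an adjusted p of 0.05, all higher (lepb, socs1a, socs2, socs3a and socs3b), and the median log2 fold change over the 9 was 0.82. Over all 21581 tested genes the share that passed was 10.5%, with 6.03% higher and 4.48% lower, and the median was 0.04. At 750 ng/mL, 2 passed, socs1a and socs2, with 6.33% of all genes passing, 4.2% higher and 2.14% lower. At 1295 ng/mL, 5 passed, all higher (lepb, il11a, socs1a, socs3a and socs3b), with 41.0% of all genes passing, 18.8% higher and 22.2% lower. Since the genes were picked with these differences known, their counts are a description, and nothing is read from them against those shares. The 3 comparisons share their controls.

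The count at 250 ng/mL was 3 to 6 on leaving out each library in turn. At that dose il11a passed without 1295 ng/mL replicate 2 (1.80), and il6st without 250 ng/mL replicate 2 (0.73). The lepb call there was lost without control replicate 1, 2 or 3 (log2 fold changes 5.08, 5.12 and 4.13) and without 250 ng/mL replicate 3. That of socs3b was lost without control replicate 1 or 3 (0.56 and 0.50), 250 ng/mL replicate 1 or 3 (0.46 and 0.56) or 1295 ng/mL replicate 1 (0.57). For socs3a at 750 ng/mL, the threshold was passed without control replicate 3 (0.65) or 1295 ng/mL replicate 2 (0.48). At 1295 ng/mL all 5 calls were made in every such fit.

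Between 750 and 250 ng/mL, none of the 9 genes passed, and the share of all genes was 0.0%, that is 0 of 21581 by edgeR's quasi-likelihood test, with 1681 at an unadjusted p under 0.05. DESeq2 called 5 genes, socs2 among them, with a log2 fold change of -0.73. The edgeR values were -4.12 (SE 1.20) for lepb, -1.74 (SE 0.69) for il11a and -0.74 (SE 0.14) for socs2. All 3 genes had every 750 ng/mL library below every 250 ng/mL library, as did lepr and socs3a. Genes outside the 9 did so too, such as il4r.1, stat2 and cebpb, while others, such as ghrb and cish, overlapped. The share of all tested genes set apart in this way is not given here, so nothing is read from it. Without 250 ng/mL replicate 3 the lepb value was -2.60.

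Between 1295 and 750 ng/mL, 6 of the 9 passed, where 52.1% of all genes did. Higher were lepb (log2 fold change 4.77, SE 1.15), il11a (3.51, SE 0.60), socs3b (0.89, SE 0.16) and socs3a (0.46, SE 0.15), while socs2 (-0.75, SE 0.15) and socs1a (-0.53, SE 0.20) were lower. The suppressor genes thus split, with the socs3 pair higher and the others lower at the top dose. The socs1a value was -0.17 if 750 ng/mL replicate 3 was left out, and -0.46 or -0.45 if replicate 1 or 3 of the top dose was, each time with the call lost. The socs3a call was lost without 750 ng/mL replicate 2 (0.38) or 1295 ng/mL replicate 2 (0.31).

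In the order of their means, lepb, il11a, socs3a and socs3b all ran 1295, 250, 750 and 0 ng/mL from high to low. The first place of 1295 ng/mL in socs3a rests on replicate 2 of that dose. For lepb and il11a, the only neighbours in that order whose libraries did not overlap were 250 and 750 ng/mL. For socs3a, 750 ng/mL was apart from both of its neighbours, and for socs3b the gaps were between 1295 and 250 ng/mL and between 750 and 0 ng/mL. The order of socs1a was 250, 750, 1295 and 0 ng/mL, where only 1295 and 0 ng/mL were apart. That of socs2 and lepr was 250, 750, 0 and 1295 ng/mL, with 250 ng/mL apart from 750 ng/mL in both and 750 ng/mL apart from controls in socs2. Neighbours in the order of means all overlapped for lepa and il6st, though the 750 ng/mL libraries of lepa (1.04 to 1.34 CPM) lay above those at 250 ng/mL (0.247 to 0.958 CPM).

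Genes most like each of the 9 were found by Pearson's r of log2(CPM + 0.5) over the 12 libraries among 15999 genes with a mean of at least 1 CPM, as a description, since all share the doses and the libraries. For lepb they were bzw1b (0.924), the matrix gene tinagl1 (0.92) and cxcl8b.1 (0.914), a chemokine that draws neutrophils. The last held 3.35, 1.79 and 4.98 CPM at 250 ng/mL and 10.8, 3.36 and 11.6 CPM at 1295 ng/mL, with replicate 2 lowest at both. For il11a they were fosl2 (0.958), a Jun partner of the AP-1 complex, and the membrane protein genes ms4a17a.12 (0.969) and ms4a17a.4 (0.958), 2 of a group of near copies. For socs3b they were the annexin gene anxa2a (0.976), hccsa.1 (0.961) and ms4a17a.5 (0.956).

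The nearest genes of the other suppressors were different ones. Those of socs1a were gadd45ab (0.984), a stress-induced growth arrest gene, the myc family gene mych (0.972) and gtpbp4 (0.948), which acts in ribosome assembly. In 750 ng/mL replicate 3, where socs1a was highest, gadd45ab and mych were also highest of all 12 libraries, at 47.7 and 105.1 CPM. Those of socs2 were ptger4b (0.945), a prostaglandin receptor gene, the LDL receptor gene ldlra (0.944) and abi3bp (0.943). For socs3a the nearest was dusp1 (0.943), which encodes a phosphatase of MAP kinases, at 356.6 CPM in 1295 ng/mL replicate 2 and 214.2 and 231.4 CPM in the other libraries of that dose. It was followed by slc43a3b (0.937) and spg20a (0.928).

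Receptor genes had neighbours of their own. For lepr they were ppp2r5a (0.946), the amino acid transporter gene slc38a3b (0.94) and aass (0.921), an enzyme of lysine breakdown. Those of il6st included itchb (0.954) and tnfaip3 (0.933), an inhibitor of NF-kappaB signalling, and both had their lowest level in 750 ng/mL replicate 3. The values for lepa were lower, at 0.8 for tcap, 0.791 for rspo1 and 0.779 for arv1.

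The rest of the pathway was followed in 4 lists of other ligands, receptors, Janus kinases with Stat factors, and feedback regulators, with 72 tested genes together. These lists and those below were chosen with earlier results of these data known, so their shares are a description. At 250 ng/mL 12 of the 72 rose and 0 fell (16.7%), at 750 ng/mL 6 rose and 0 fell (8.33%), and at 1295 ng/mL 18 rose and 8 fell (36.1%), against the 10.5%, 6.33% and 41.0% of all genes given above. The median log2 fold changes of the 72 were 0.26, 0.10 and 0.12. Leaving out single libraries gave 8 to 14, 2 to 8 and 16 to 29 calls. The lowest counts came without control replicate 1 at 750 ng/mL (2 calls) and without control replicate 3 at 1295 ng/mL (16 calls), and leaving out 750 ng/mL replicate 3 gave 3 calls at 750 ng/mL.

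Among other feedback regulators, 3, 2 and 5 of 19 rose and 0, 0 and 3 fell at 250, 750 and 1295 ng/mL (15.8%, 10.5% and 42.1% called, against 10.5%, 6.33% and 41.0% of all genes). The clearest was cish, a Stat5 target that acts on growth hormone and cytokine receptors. It held 28.7, 22.6 and 26.3 CPM in controls, 53.0, 64.3 and 59.8 CPM at 250 ng/mL, 45.9, 45.7 and 53.0 CPM at 750 ng/mL and 48.7, 77.4 and 46.2 CPM at 1295 ng/mL. Like socs1a and socs3a, it was above all controls in every library with bepridil, and within the 1295 ng/mL group it was highest in replicate 2. Its log2 fold changes were 1.19, 0.90 and 1.15 (SE 0.17 each), with adjusted p of 0.0005, 0.00487 and 0.000134. Without replicate 2 of the top dose the last was 0.88. Another suppressor gene, socs5b, named after its values were seen, fell by 0.84 (SE 0.21, adjusted p = 0.005) at 1295 ng/mL.

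Of 29 other receptor genes, 7, 3 and 5 rose and 0, 0 and 4 fell in dose order (24.1%, 10.3% and 31.0% called, beside those same shares of all genes). The growth hormone receptor gene ghrb, whose signal Socs2 dampens, held 23.7, 25.5 and 25.9 CPM in controls, 39.7, 56.7 and 48.9 CPM at 250 ng/mL, 41.4, 31.9 and 36.3 CPM at 750 ng/mL and 21.9, 24.3 and 19.8 CPM at 1295 ng/mL. As for socs2, all libraries at 250 and 750 ng/mL were above all controls, and the 1295 ng/mL group was not. It rose by 0.95 (SE 0.13, adjusted p = 0.000488) at 250 ng/mL and by 0.55 (SE 0.13, adjusted p = 0.0239) at 750 ng/mL. The call at 750 ng/mL was lost without control replicate 1 or 3 (0.51 and 0.57) or 750 ng/mL replicate 1 or 3 (0.45 and 0.51). Among the 5 that rose at 1295 ng/mL were il4r.1, crlf3, il13ra1 and lifrb, by 0.86, 0.52, 0.66 and 0.72. At 250 ng/mL il4r.1 and lifrb also rose, by 0.91 and 0.73. At 750 ng/mL lifrb rose by 0.54, a call lost without replicate 3 of that dose (0.52). The 4 that fell at 1295 ng/mL, named after their values were seen, were lifra, il2rgb, epor and crfb1, by 0.66, 0.78, 0.93 and 0.55, and each call was lost without replicate 2 of that dose, among other libraries (-0.52, -0.67, -0.77 and -0.42).

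Of 13 genes for Janus kinases and Stat factors, 2, 1 and 4 rose and 0, 0 and 1 fell (15.4%, 7.69% and 38.5%). The interferon signalling gene stat2 rose by 0.70 and 0.57 (SE 0.11 each, adjusted p = 0.00107 and 0.00604) at 250 and 750 ng/mL and fell by 0.56 (SE 0.11, adjusted p = 0.00145) at 1295 ng/mL. Expression of stat1b rose by 1.64 (SE 0.36, adjusted p = 0.00235) at 1295 ng/mL, where its libraries held 5.01, 1.71 and 4.14 CPM, with the low replicate 2 seen in lepb, and by 1.98 without that replicate. Of 25 other ligand genes with a row, 11 had enough counts to be tested, 0 of them passed at 250 or 750 ng/mL, and 4 rose and 0 fell at 1295 ng/mL (36.4%, against 41.0% of all genes). The one with the smallest p was il34 (log2 fold change 1.06, SE 0.18, adjusted p = 0.000346), whose receptor is itself a tyrosine kinase and not coupled to Janus kinases. The others were crlf1a (0.51), il4 (1.31) and csf3a (0.61), and their calls were lost without control replicate 3 (0.41, 1.38 and 0.50) and, for il4 and csf3a, without several other libraries.

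Genes that Stat3 is known to activate, with acute-phase genes, formed a list of 34 tested genes. At 250 ng/mL 11 rose and 1 fell, at 750 ng/mL 7 rose and 2 fell, and at 1295 ng/mL 26 rose and 2 fell, with median log2 fold changes of 0.30, 0.26 and 0.84. These were 35.3%, 26.5% and 82.4% of the list, against 10.5%, 6.33% and 41.0% of all genes. As for the other lists, this is a description, since the list was chosen with earlier results known. The transcription factor gene cebpb rose by 1.59 (SE 0.11, adjusted p = 3.95e-06) at 1295 ng/mL, and the fibrinogen genes fgb, fgg and fga rose by 1.17, 1.12 and 1.15. Fibrinogens are made by the liver, and 8 of 10 liver markers rose at that dose, with summed levels of 18209.4 to 19208.3 CPM, against 11058.9 to 13192.7 CPM in controls, whose part in these values was not tested. The genes cp and a2ml stand in both the Stat3 and the liver list.

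Injury and regeneration genes, the setting in which lepb and il11a are best known, were a list of 32, some shared with the Stat3 list. At 1295 ng/mL 20 rose and 1 fell (median log2 fold change 1.02), that is 65.6% of the list against 41.0% of all genes, and without replicate 2 of that dose 18 were called. The AP-1 gene fosl1a rose by 2.48 (SE 0.25, adjusted p = 9.88e-06), junba by 1.80 (SE 0.20), the stress-induced factor gene atf3 by 1.20 (SE 0.13) and the growth factor gene hbegfa by 1.02 (SE 0.11). At 250 ng/mL, where lepb was also high, 1 rose, fosl1a by 1.35 (SE 0.25, adjusted p = 0.00307), and 2 fell, while at 750 ng/mL 1 rose and 2 fell. At each of these doses that was 9.38% of the list, against 10.5% of all genes at 250 ng/mL and 6.33% at 750 ng/mL.

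Hypoxia, a setting in which leptin genes of fish are known to be induced, gave mixed counts in a list of 36. In dose order 8, 6 and 12 rose and 3, 0 and 9 fell, with medians of 0.09, 0.10 and 0.09. These were 30.6%, 16.7% and 58.3% of the list, against 10.5%, 6.33% and 41.0% of all genes. At 1295 ng/mL adma, igfbp1a and hk2 rose by 1.50, 1.12 and 0.89, and slc2a1a fell by 1.23. The gene igfbp1a also rose at 250 and 750 ng/mL, by 0.71 and 0.62, the latter call being lost without 750 ng/mL replicate 3 (0.58). Hypothalamic appetite genes, on which leptin acts in mammals, were a list of 19, of which 3, 4 and 1 rose and 0, 0 and 5 fell (medians 0.29, 0.45 and -0.62; 15.8%, 21.1% and 31.6% of the list). The gene that rose at 1295 ng/mL was agrp, which encodes an appetite-stimulating peptide, by 0.67 (SE 0.15, adjusted p = 0.00283). Those that fell there were ntrk2a, a neurotrophin receptor gene, by 1.05 (SE 0.13, adjusted p = 4.42e-05), bdnf, which encodes its ligand, by 0.60 (SE 0.11), the prohormone convertase gene pcsk1 by 1.11 (SE 0.23), pomca by 0.80 and pmch by 1.71. The calls of pomca and pmch were lost without 1295 ng/mL replicate 2 (-0.52 and -1.44), among other libraries. Without 750 ng/mL replicate 3 the calls among appetite genes were 2 at 750 ng/mL and 10 at 1295 ng/mL, and without 1295 ng/mL replicate 2 they were 4 at 1295 ng/mL.

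**Figure D4:**
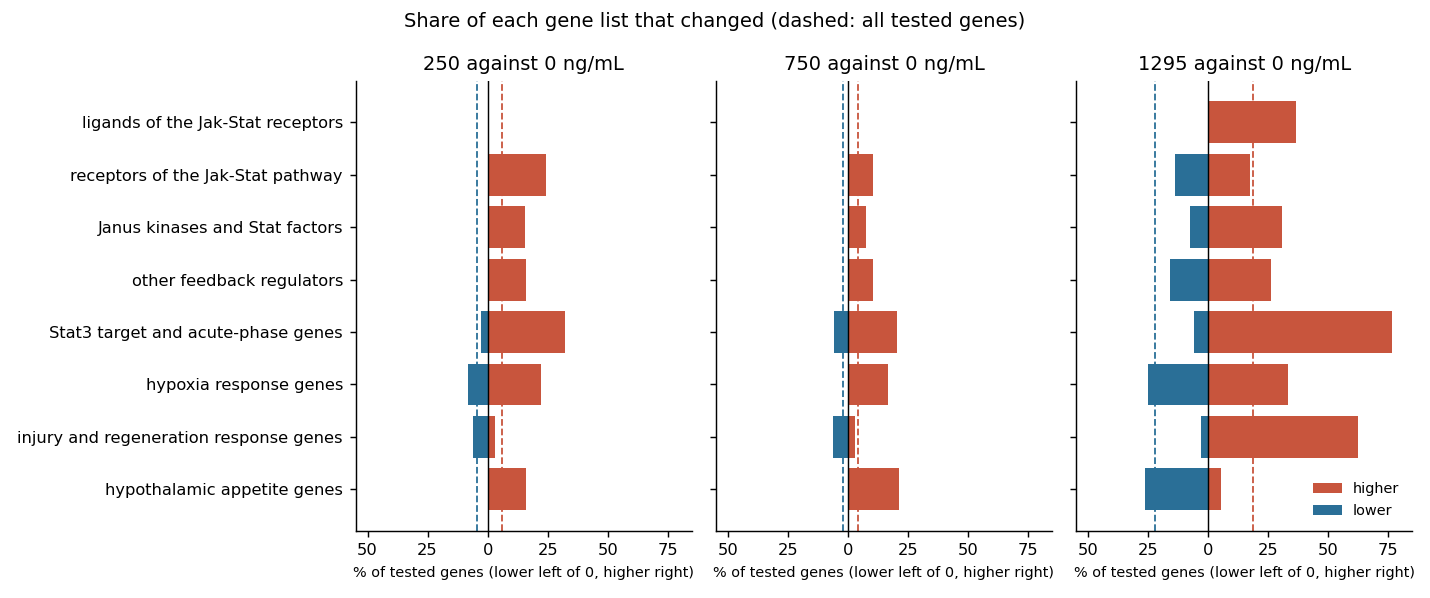
Percent of the tested genes of each list that were higher (right of 0) or lower (left of 0) than in 0 ng/mL larvae at an adjusted p of 0.05, in a panel for each dose, with dashed lines for the same shares of all tested genes. At 1295 ng/mL the bars to the right are longest for Stat3 target and acute-phase genes (26 of 34) and injury and regeneration genes (20 of 32). The lists were chosen with earlier results of these data known.

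Markers of several cell types moved over the same doses as the 9 genes. Of all tested genes, 6.03%, 4.2% and 18.8% rose at 250, 750 and 1295 ng/mL, and 4.48%, 2.14% and 22.2% fell. Summed exocrine pancreas markers were 1464.3 to 2876.8 CPM in controls, 6776.8 to 10328.0 CPM at 250 ng/mL, 6756.6 to 7969.5 CPM at 750 ng/mL and 1503.0 to 3024.7 CPM at 1295 ng/mL, and 13, 13 and 0 of 13 rose in dose order. Summed neutrophil markers were 314.2 to 504.6 CPM in controls, 1095.2 to 1437.5 CPM at 250 ng/mL, 1030.9 to 1148.6 CPM at 750 ng/mL and 500.5 to 553.0 CPM at 1295 ng/mL, but 2, 1 and 5 of 8 rose (medians 0.63, 0.27 and 0.74). The gene cpa5, which is also among the 8 counted, alone made up 83.5% to 91.6% of that sum at 250 ng/mL and 85.7% to 88.4% at 750 ng/mL. At these doses the sum therefore followed cpa5 more than the other markers of the list. Without cpa5 the sum was 100.7 to 144.7 CPM in controls, 120.6 to 200.3 CPM at 250 ng/mL, 133.6 to 147.2 CPM at 750 ng/mL and 208.9 to 361.5 CPM at 1295 ng/mL, so that 1295 ng/mL was the dose at which every library was above every control. Summed epidermis markers, which are not particular to the fin, were 28959.7, 39959.7 and 29266.6 CPM at 1295 ng/mL, against 20634.7 to 22498.4 CPM in controls. At that dose 9 of 10 rose, and replicate 2 had the highest sum. Of macrophage markers, 0, 1 and 4 of 12 rose (0.0%, 8.33% and 33.3%). Summed red cell markers were 1214.6 to 1385.9 CPM in controls, 678.5 to 829.7 CPM at 250 ng/mL, 791.2 to 982.1 CPM at 750 ng/mL and 1665.6 to 2028.1 CPM at 1295 ng/mL, with 0, 0 and 3 of 6 rising and 4, 3 and 0 falling. At the top dose 5 of 9 heart markers rose and 1 fell (921.6 to 1026.9 CPM summed, against 670.2 to 741.8 CPM in controls). The gene actc1a made up 77.5% to 82.1% of that sum. Without actc1a the sums overlapped, at 168.9 to 183.0 CPM in controls and 172.2 to 231.3 CPM at 1295 ng/mL. Of muscle markers 6 of 10 rose and 1 fell there (52627.5 to 61429.1 CPM, against 39165.5 to 46602.1 CPM in controls). Of eye markers 1 of 9 rose and 5 fell there (2039.9 to 2264.6 CPM, against 2633.2 to 4384.8 CPM in controls). The opsin gene opn1sw1 made up 16.7% to 33.7% of that sum at 1295 ng/mL and 37.3% to 45.0% in controls. Without opn1sw1 the sum at 1295 ng/mL, 1500.6 to 1699.3 CPM, lay within the control range of 1448.4 to 2437.5 CPM. The part of these cell types in the levels of the 9 genes was not tested.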

How the data were processed

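Messenger RNA of 12 pooled samples was sequenced from libraries made with a stranded kit, per the labels' protocols. The authors deposited raw counts of reads per gene, whole numbers with no normalization that the values show, in a table of the series and in 12 per-sample files that hold the same counts. The submitters' processing notes name the tools Trimmomatic, HISAT2 and HTSeq and the build GRCz11. For versions, annotation and strand setting, nothing is given in the sources used here, so reads of a gene and of an antisense partner may not be told apart. Of 25099 names, 18 had no count and 10 had turned into dates. Coordinates, gene lengths and sequences were not used here.

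Groups and replicate numbers came from the labels. Libraries of a group all differed from each other by more than sampling noise (chi-square per degree of freedom 3.46 to 14.67). In R 4.3.3, edgeR 4.0.16 filtered genes with filterByExpr, scaled libraries by TMM and fitted all 12 in 1 quasi-likelihood model with dose group as the factor and 8 residual degrees of freedom. Over the 21581 genes kept, Benjamini-Hochberg adjusted p-values under 0.05 were called, and the prior count behind fold changes was 0.125. The coefficient of variation between replicates was 12.1%. All 9 genes passed the filter. The procedure was tested on simulated data. Alternatives were RLE scaling, no filter, DESeq2 1.42.0, only the compared groups, a replicate block, a prior count of 2, and leaving out each library.

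The genes described and the lists were chosen with earlier results of these data known. For the 9 genes no p-value is printed, and which of them passed the threshold is given as a description only. Lists came from textbook knowledge, and some genes stand in several. Besides the 9, genes are named by a rule: the top 4 or fewer of a list by p at 1295 ng/mL, up to 4 per Jak-Stat list called at lower doses, and the 3 most correlated genes of each of the 9 (1 of them is not reported here); others are said to be named after their values were seen.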

Additional observations from a re-analysis of the deposited data

How the results depend on the processing

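At 1295 against 0 ng/mL, the counts of all genes and of the 9 genes called stayed within 1.5 times of 8848 and 5 in every alternative, and no called fold change of the 9 genes changed sign. Leave-one-out fits gave 1069 to 3051 genes at 250 ng/mL (2269 with all libraries) and 631 to 1568 at 750 ng/mL (1367), with 3 to 6 and 2 to 3 of the 9 genes, 8 to 14 and 2 to 8 pathway genes, and 16 to 29 pathway genes at 1295 ng/mL. They gave 0 to 1 gene between 750 and 250 ng/mL, where DESeq2 gave 5, with 1 of the 9. The low counts came without control replicate 1 (1105 and 631), 250 ng/mL replicate 3 (1069) and 750 ng/mL replicates 1 and 3 (885 and 837). With only the compared groups, 750 ng/mL had 813 genes, 3 pathway genes and 1 of the 9 genes, since socs2 (0.69) was lost. In fits of 2 groups lepb fell under the filter, and so did il11a unless 1295 ng/mL was in the fit. Of called genes at 250 ng/mL, 57.4% were higher, and 45.0% with DESeq2; the 9 genes kept their signs there. DESeq2 also called il11a at 250 ng/mL (1.83) and socs3a at 750 ng/mL (0.49). With a prior count of 2, lepb was 3.82 and 4.46 at 250 and 1295 ng/mL. Without 750 ng/mL replicate 3, a check chosen after seeing the data, 1 injury gene and 2 appetite genes were called at 750 ng/mL and 10 appetite genes at 1295 ng/mL; without 1295 ng/mL replicate 2, also added, each of these 3 counts was 4. Correlations of deviations between libraries with the same replicate number were -0.259 to 0.155. Those of other pairs were not taken, so pairing by number was not settled. A replicate block gave 1940, 1275 and 8374 genes at 250, 750 and 1295 ng/mL and 6, 2 and 5 of the 9. The block added il11a at 250 ng/mL (1.80). The causes were not tested. Counting error limits lepa, at 4 to 34 counts per library, and lepb and il11a at 0 and 750 ng/mL, at 0 to 5 and 3 to 8 counts.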
